A study of Drosophila melanogaster with 6 samples.

Results

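The dpr, DIP, beat and side genes code for cell surface proteins of the immunoglobulin superfamily in Drosophila. Members were taken by gene symbol alone (dpr with a number, DIP-, beat-, side and side-), without regard to any value, from the authors' 3 gene tables. This gave 53 of 13683 genes: 21 dpr, 11 DIP, 13 beat and 8 side genes. Of these, 52 were in every gene table, and 50 of 12390 genes had exon counts for each library. RNA with a polyA tail was sequenced from the brain, the whole leg and the indirect flight muscle (IFM) of w[1118] pupae, grown at 27 °C and dissected at 72 h after puparium formation, with 2 libraries per tissue. All 6 libraries thus shared genotype and age, and they differed in tissue. The whole leg holds muscle, epidermis, nerves and trachea together, so a leg value is an average over them. The paper calls the libraries biological duplicates, the number of animals behind each was not given in the sources used here, and p-values therefore measure the spread between these libraries only.

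Dpr and DIP proteins bind each other across the gap between cells, each DIP preferring a few Dprs, and neuron types of the fly visual system and motor neurons carry different sets of them. Beat and Side proteins form a second network of the same kind, in which Side-type receptors or ligands on a target cell are bound by Beat proteins of the axon. In the fly embryo, side on muscle guides motor axons that carry beat-Ia. The comparison of the 3 tissues shows where these genes were expressed and with which exons late in pupal life, when the adult flight and leg muscles and the adult brain circuits mature.

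The exon counts summed to between 67090697 and 177961568 per library, with the deepest library in IFM. Counts of a gene's exon bins (stretches of exon between annotated boundaries) were added, divided by their length in kb, scaled to 1000000 TMM-scaled counts and are called levels here. A pair of values joined by a slash gives the 2 libraries of a tissue, in the order of the deposited columns. The scaling matters, since TMM factors were 0.66/0.58 in IFM, 1.66/1.78 in brain, 0.95/0.94 in leg. Under it, the median log2 fold change of all 12343 genes tested with edgeR was -0.10 for brain against IFM, -0.03 for brain against leg and -0.11 for leg against IFM. With total counts alone these medians became 1.37, 0.81 and 0.48, and changes are best read against them. Tissue labels matched their markers: 3 of 3 flight muscle markers were lower in brain and in leg than in IFM, with summed levels of 53140/71850 in IFM and at most 1666 elsewhere. Of the neuron markers, 8 of 10 had exon counts and all 8 were higher in brain than in either other tissue. Markers of sperm and testis, which belong to no tissue dissected here, were highest in IFM: 3 of 4 had exon counts, with summed levels of 214.8/78.1 in IFM, 1.697/0.706 in brain, 13.9/0.534 in leg, and all 3 were lower in brain and leg than in IFM by the edgeR test. By the labels, IFM libraries were made by GENEWIZ and those of brain and leg by LC Sciences, while the paper names LC Sciences for every library. If the labels hold, provider and tissue cannot be told apart in a comparison with IFM.

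Nearly all members had their highest level in brain. There, levels ran from 8.06 for dpr6 to 148 for dpr21, with a median of 23.0, and 50 of 50 members lay above the median of all genes. In IFM the median was 0.95 and 4 of 50 members lay above the median of all genes. In leg the median was 1.61 and 8 of 50 did. All members together took 0.973/0.856% of the exon counts in the brain libraries, 0.0364/0.0324% in IFM and 0.0521/0.0466% in leg. The mean level was highest in brain for 49 members and in IFM for 1, which was side. It was lowest in IFM for 33 members and in leg for 17.

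**Figure D1:**
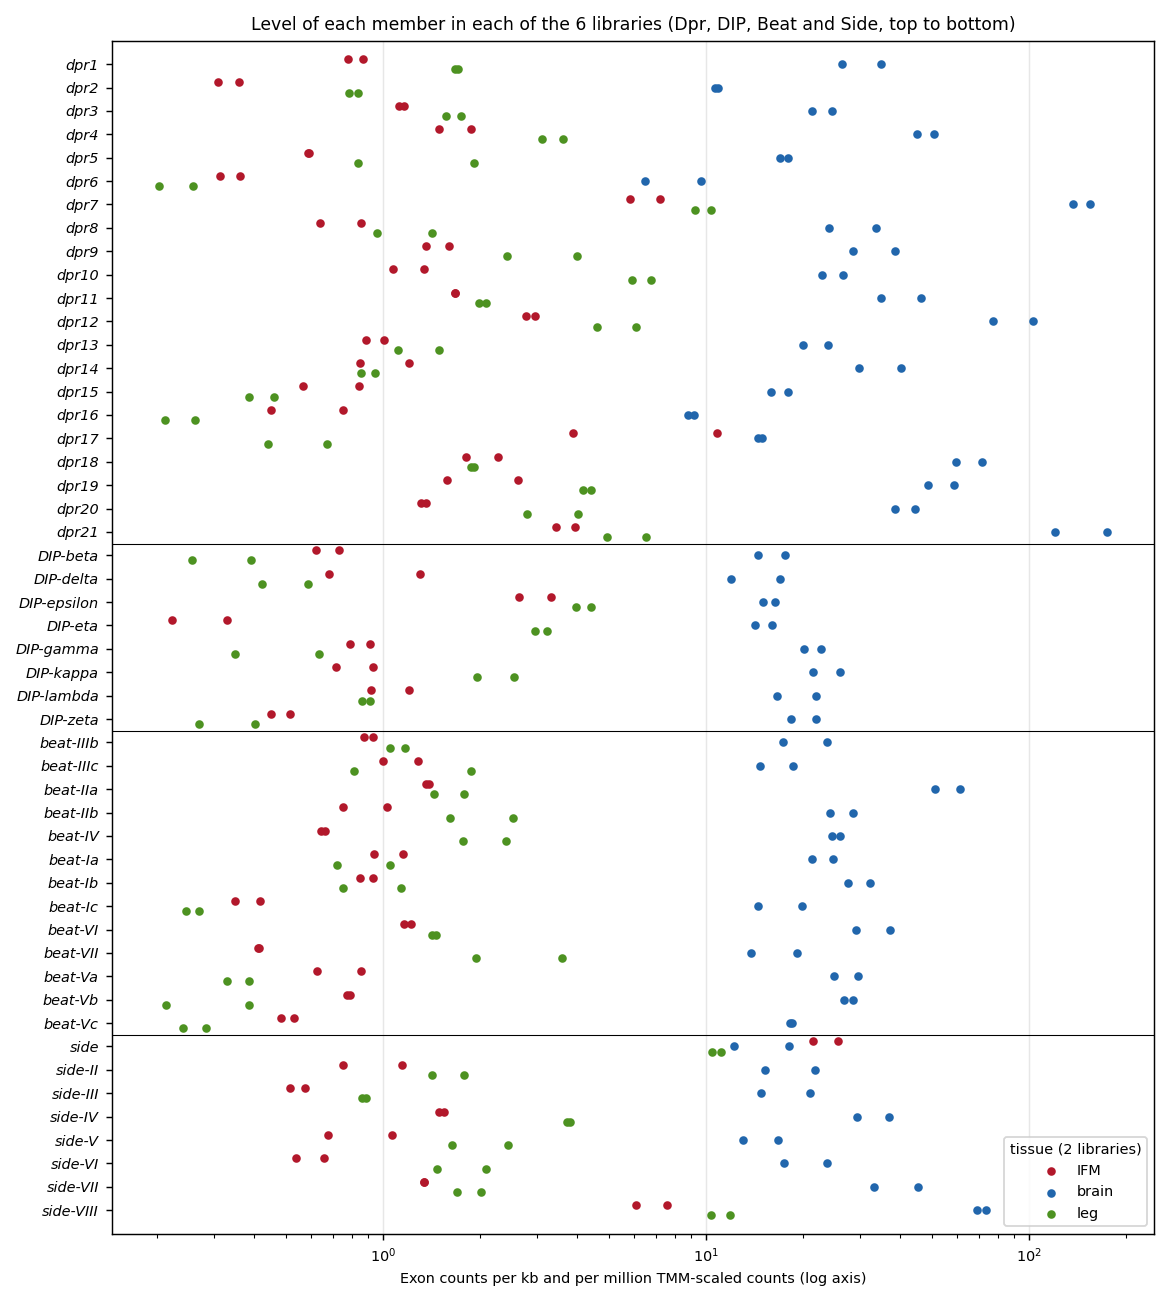
Level of each of the 50 members with exon counts in each of the 6 libraries (exon counts per kb and per 1000000 TMM-scaled counts, log axis; 2 dots per tissue). The blue brain dots lie to the right of all others in every line but that of side, whose IFM libraries, at 21.5 and 25.7, are the highest.

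Against IFM, 48 of 50 members were higher in brain (edgeR quasi-likelihood test, Benjamini-Hochberg adjusted p of at most 0.00047, log2 fold changes of 2.28 to 5.63). Over all genes, 31.3% were higher and 35.1% lower, 66.4% together. Against leg, 49 of 50 members were higher in brain (edgeR adjusted p of at most 0.00129, log2 fold changes of 1.82 to 6.44), where 20.8% of all genes were higher, 22.6% lower and thus 43.4% called. Libraries did not overlap between brain and IFM for 50 of 50 members, 49 higher and 1 lower in brain (43.5% and 42.4% of all genes), and between brain and leg for 50 of 50, all higher in brain (39.0% of all genes). The median log2 fold change of the members was 4.69 against IFM and 4.10 against leg. All 4 families shared this: against IFM, the medians were 4.56 for 21 dpr genes, 4.49 for 8 DIP genes, 5.02 for 13 beat genes and 4.25 for 8 side genes. Each of these 48 and 49 calls was kept when any single library was left out, and under each other setting tried. Neuron markers moved in the same way, with a median log2 fold change of 4.23 against IFM and 3.63 against leg over 8 genes. So did those of photoreceptors, with 8 of 8 higher in both comparisons (medians 3.61 and 5.88). Of the glia markers, 8 of 8 were higher against IFM (median 2.75). Against leg, 6 of 8 were higher (median 2.01) and 1, loco, was lower (-0.69, edgeR adjusted p = 0.0058). In bulk samples, fewer cells of a type and less RNA per cell cannot be told apart, and the part that the content of these cells has in the members' changes was not tested.

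**Figure D2:**
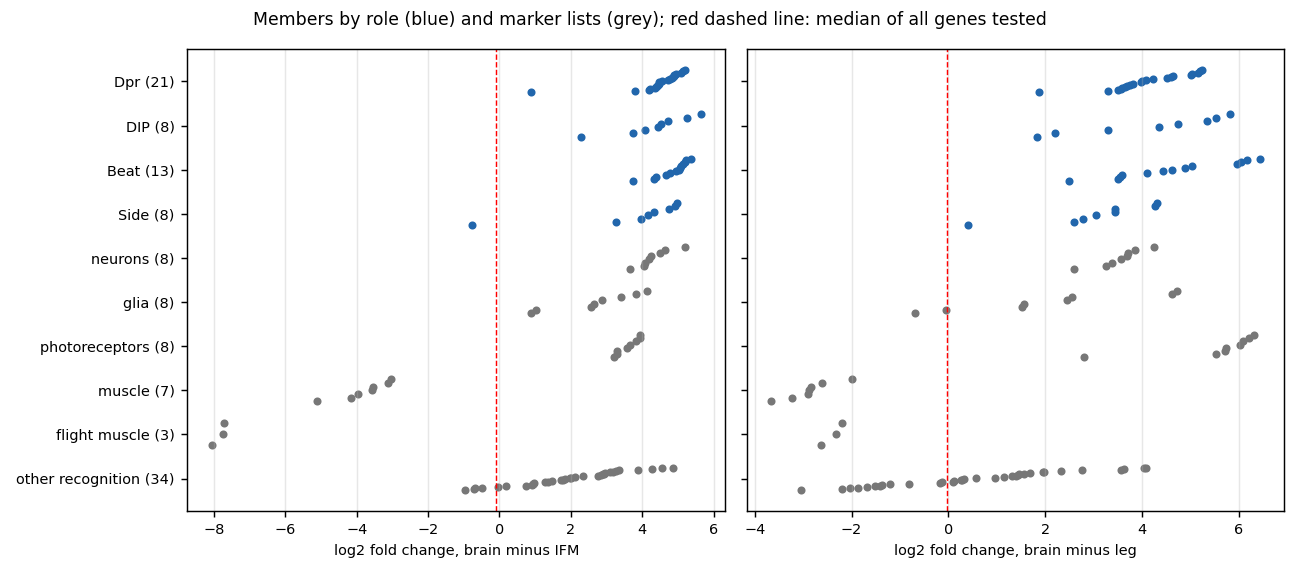
Log2 fold changes of brain minus IFM (left) and brain minus leg (right) for the members by family (blue) and for lists of markers and other recognition genes (grey), with the number of genes in brackets and the median of all genes as a dashed line. The members overlap the neuron markers, and the lone blue dots near the dashed lines are side and, on the left, dpr17.

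Among the dpr genes, whose products are ligands or receptors for the DIPs, dpr21 and dpr7 had the highest brain levels. The 2 brain libraries held dpr21 at levels of 175 and 121, the IFM libraries at 3.92 and 3.43 and the leg libraries at 6.52 and 4.94. For dpr7, levels were 155/137 in brain, 7.21/5.83 in IFM and 10.3/9.23 in leg. In both genes, each brain library stood far above each library of the other tissues. The bins of dpr21 sum to only 993 bases, fewer than those of any other member. Next came dpr12, at 103/77.6 in brain, and dpr18, at 71.5 and 59.3. In IFM, dpr12 was at 2.95 and 2.78 and dpr18 at 1.81 and 2.27, and in leg they were at 6.08 and 4.61 and at 1.88 and 1.91. The beat gene with the highest brain level was beat-IIa (61.4 and 51.1), which was at 1.39/1.36 in IFM and 1.45/1.79 in leg. Among the side genes it was side-VIII, with levels of 69.0/73.7 in brain, 6.07/7.56 in IFM and 10.4/11.8 in leg. The DIP genes had a narrower brain range, from 14.5 for DIP-delta to 23.8 for DIP-kappa.

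The largest changes against IFM were those of DIP-eta, beat-Ic, DIP-zeta, beat-IIa and dpr21. DIP-eta, a receptor for several Dprs, was at 0.22/0.33 in IFM and 16.04/14.2 in brain (log2 fold change 5.63, SE 0.26, edgeR adjusted p = 2.52e-05). beat-Ic went from 0.42/0.35 in IFM to 19.9/14.5 in brain (log2 fold change 5.37, SE 0.24). DIP-zeta went from 0.51 and 0.45 to 21.96 and 18.4 (log2 fold change 5.26, SE 0.26). These differences far exceed the spread within either tissue. Against leg, the largest changes were those of the 3 beat-V genes, beat-Ic and DIP-zeta. The leg libraries held beat-Vb at 0.21 and 0.39, beat-Va at 0.33 and 0.39 and beat-Vc at 0.28 and 0.24, while the brain libraries held them at 28.6 and 26.7, 29.7 and 24.99, and 18.3 and 18.5. Their log2 fold changes were 6.44 (SE 0.32), 6.16 (SE 0.25) and 6.04 (SE 0.22), with edgeR adjusted p of 5e-05 or below. The 3 genes lie within 12746036 to 12934813 of chromosome 3R in the BDGP6 build.

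The gene side stood apart from the rest. It lies on the minus strand of chromosome 3R, and it codes for Sidestep, the muscle cue for motor axons in the embryo. Its levels were 21.5/25.7 in IFM, 18.1/12.2 in brain, 11.1/10.4 in leg. The IFM libraries were thus the highest and the leg libraries the lowest, with no overlap between tissues. It was lower in brain than in IFM by a log2 fold change of -0.76 (SE 0.22, edgeR adjusted p = 0.0225) and lower in leg than in IFM by -1.17 (SE 0.22, adjusted p = 0.00594). The difference of 0.41 (SE 0.22) between brain and leg did not pass the test (edgeR adjusted p = 0.186). The order of brain and IFM depends on the scaling: with total counts only, side was higher in brain by 0.71 (edgeR adjusted p = 0.0122). The call was also lost without the second IFM library (-0.63, adjusted p = 0.0906), without the second brain library (-0.51, adjusted p = 0.0849), without the second leg library (-0.64, adjusted p = 0.0691) and with the 4 libraries of the pair alone (-0.68, adjusted p = 0.0545). Lower side in leg than in IFM was called in every setting, total counts included (-0.56, edgeR adjusted p = 0.0372). Of all member counts, not divided by length, side alone made up 47.6/55.7% in IFM, 23.9/24.9% in leg and 3.42/2.86% in brain. Its bins sum to 11723 bases, more than those of any other member.

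The other exception was dpr17, on the plus strand of chromosome 3R. Its levels were 10.9/3.88 in IFM, 14.9/14.5 in brain, 0.67/0.44 in leg. The first IFM library was thus close to brain and the second well below it, and both leg libraries were far lower than either. The sperm and testis markers were likewise higher in the first IFM library than in the second and lower in leg (214.8/78.1 in IFM, 13.9/0.534 in leg), but they were low in brain (1.697/0.706), where dpr17 was highest. Their part in the IFM level of dpr17 was not tested. The log2 fold change of brain against IFM was 0.88 (SE 0.46, edgeR adjusted p = 0.136). It became 1.80 (adjusted p = 0.00372) without the first IFM library, 0.31 (adjusted p = 0.352) without the second and 2.30 (adjusted p = 0.00698) with total counts only. Against IFM, dpr17 was lower in leg by -3.76 (SE 0.52, adjusted p = 0.00165), the largest fall of any member in that comparison, and this call was made in every setting.

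Leg and IFM both hold muscle, and here the members split. In leg, 21 of 50 members were higher than in IFM and 8 were lower (edgeR adjusted p under 0.05), where 26.9% of all genes were higher, 30.4% lower and 57.3% called. Libraries did not overlap for 31 members higher and 14 lower in leg (39.6% and 42.8% of all genes). The median log2 fold change of the members was 0.45, against -0.11 for all genes. By family, 11 dpr, 2 DIP, 3 beat and 5 side genes were higher, and 3, 1, 3 and 1 were lower. With total counts only, 33 were higher and 3 lower, but so were 5075 and 2545 of all 12343 genes, whose median was then 0.48. With the 4 libraries of these tissues alone, 18 were called, 16 higher and 2 lower. Of the 29 calls, 18 were kept when any 1 library was left out.

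The 5 members that were highest in leg relative to IFM were DIP-eta, beat-VII, dpr10, beat-IV and side-VI. DIP-eta was at 3.22/2.96 in leg and at 0.22/0.33 in IFM (log2 fold change 3.43, SE 0.24, edgeR adjusted p = 0.000142). For beat-VII, levels were 3.59/1.94 in leg and 0.41/0.41 in IFM (2.72, SE 0.33, edgeR adjusted p = 0.000992). The leg libraries held dpr10 at 5.91 and 6.75 and the IFM libraries at 1.08 and 1.34 (2.35, SE 0.18, edgeR adjusted p = 0.000186). In all 3, each leg library lay above each IFM library, and among the dpr genes only dpr7 had a higher mean leg level than dpr10. Lower rises were those of beat-IV (1.64, SE 0.19), at 2.40/1.77 in leg and 0.66/0.64 in IFM, and of side-VI (1.54, SE 0.24), at 2.09/1.48 in leg and 0.54/0.66 in IFM. These 5 calls were kept under every setting. The other 16 members called higher in leg, by log2 fold changes of 0.50 to 1.42, were dpr1, dpr2, dpr3, dpr4, dpr5, dpr7, dpr9, dpr12, dpr19, dpr20, DIP-kappa, beat-IIb, side-III, side-IV, side-V and side-VIII. Of these, dpr3, dpr5, dpr7, dpr9, dpr12, beat-IIb, side-III, side-V and side-VIII each lost the call when 1 library or another was left out.

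The members lower in leg than in IFM were dpr17, beat-Vb, dpr16, side, DIP-beta, beat-Va, beat-Vc and dpr15. After dpr17 and side, whose values are above, beat-Vb fell from 0.79/0.77 in IFM to 0.21/0.39 in leg (log2 fold change -1.42, SE 0.28, edgeR adjusted p = 0.00713). dpr16 was at 0.75/0.45 in IFM and 0.26/0.21 in leg (-1.37, SE 0.31, adjusted p = 0.0111), and DIP-beta at 0.73/0.62 and 0.39/0.26 (-1.09, SE 0.24, adjusted p = 0.0105). These are low levels in both tissues. The calls for beat-Va, beat-Vb, beat-Vc, dpr15, dpr16 and DIP-beta were lost when only the 4 libraries of the pair were fitted (edgeR adjusted p from 0.0634 to 0.153), and that of dpr16 without the second leg library (adjusted p = 0.0541). With total counts only, those of beat-Va, beat-Vc, dpr15, dpr16 and DIP-beta were lost (edgeR adjusted p from 0.0844 to 0.597), and dpr15 was called in 1 of 6 leave-one-out fits. Markers of photoreceptors, which belong to neither tissue, moved in the same direction: 7 of 8 were lower in leg than in IFM, and their summed levels were 62.8/95.9 in IFM, 18.03/20.04 in leg and 982/1254 in brain. Their part in the lower member levels of leg was not tested. None of the 8 was at 0 in IFM. Of the glia markers, 4 of 8 were higher and 1 lower in leg, with summed levels of 266/261 in IFM, 375/381 in leg and 2466/2545 in brain. Of the 8 neuron markers, 3 were higher in leg, and their sums were 43.6/41.8 in IFM, 103/66.4 in leg and 1225/881 in brain. Markers of epidermis, cuticle and tendon moved with the members that were higher in leg: 5 of 6 were higher there (median log2 fold change 2.94), with summed levels of 79.9/86.8 in IFM and 992/844 in leg. The trachea marker pio was at 7.51/7.09 in IFM and 90.99/92.2 in leg. Their part in the higher member levels of leg was not tested.

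**Figure D3:**
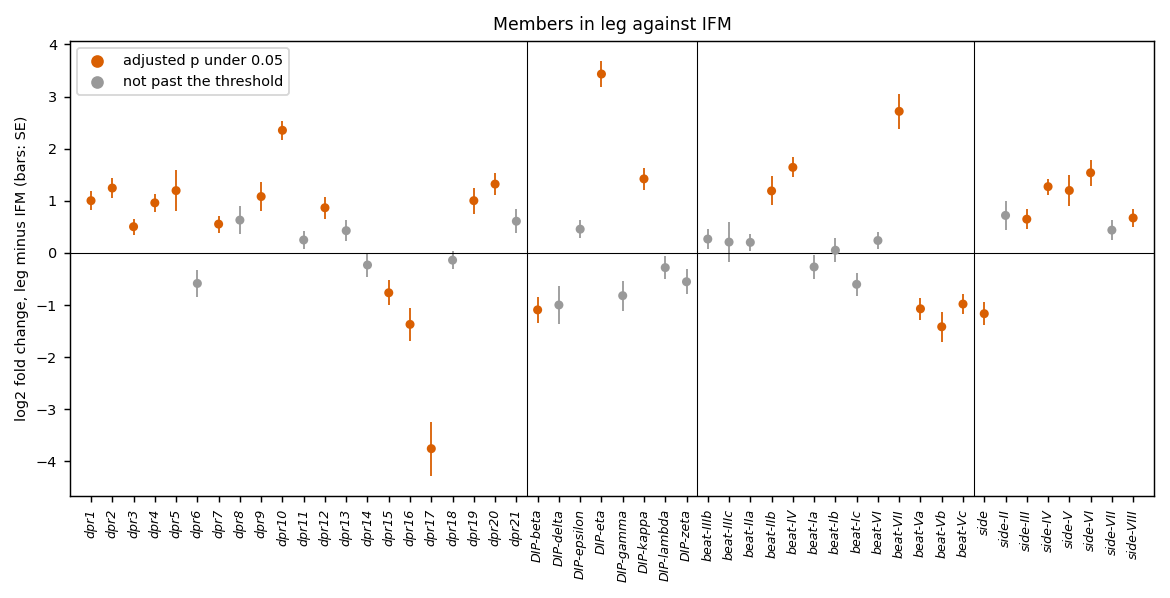
Log2 fold change of leg minus IFM for the 50 members (dots) with its standard error (bars), ordered by family and coloured by whether the edgeR test was passed. DIP-eta at 3.43 and dpr17 at -3.76 mark the ends, and the coloured dots fall on both sides of the line at 0 in each family.

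For several members a binding partner is known from work in Drosophila, and their levels can be set side by side. DIP-alpha, the receptor for dpr6 and dpr10 on leg motor neurons, had no exon counts, and its authors' mean normalized signal over 4 libraries was 400 in the table of IFM and brain, 380 in that of brain and leg and 39.1 in that of IFM and leg. DIP-theta, also without exon counts, had authors' means of 1269, 1288 and 108 in the same tables, and DIP-iota had 5.48 in the first and 7.03 in the second. For DIP-alpha and DIP-theta the mean was thus lowest in the one table without brain. The DIP-alpha partners dpr6 and dpr10 are neighbours on chromosome 3L, 8093 bases apart. In leg, dpr10 was at 5.91 and 6.75 but dpr6 at 0.26 and 0.20, the lowest mean leg level of any member. In brain they were at 26.7 and 22.8 and at 9.65 and 6.46. Relative to IFM, dpr6 did not pass the test in leg (log2 fold change -0.59, SE 0.26, edgeR adjusted p = 0.101).

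In brain, DIP-gamma (22.8 and 20.1) stood beside its partner dpr11 (46.3 and 34.8), and DIP-delta (16.95 and 11.98) beside dpr12 (103 and 77.6). In leg, dpr11 was at 1.98 and 2.09 and DIP-gamma at 0.35 and 0.64. In IFM they were at 1.68 and 1.67 and at 0.91 and 0.79. DIP-delta was at 1.30/0.68 in IFM and 0.42/0.59 in leg. In each of these pairs the Dpr had the higher level in every library.

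For the partners beat-Ia and side, the highest levels were in brain and in IFM, but with total counts only side was higher in brain (0.71 above IFM). beat-Ia was at 24.8/21.3 in brain, 1.16/0.94 in IFM and 0.72/1.05 in leg, so its level in IFM was far below that of side. The partners beat-IIa and beat-IIb of side-IV were at 61.4 and 51.1 and at 28.6/24.2 in brain, beside side-IV at 36.9 and 29.4. In leg, side-IV was at 3.72 and 3.79 and above its IFM levels of 1.54 and 1.49 (log2 fold change 1.27, SE 0.15, edgeR adjusted p = 0.000968). beat-IIb was at 2.54/1.61 in leg and 1.03/0.75 in IFM. side-VI, the partner of the beat-V genes, was at 23.8/17.5 in brain, and unlike these 3 genes it was higher in leg than in IFM. beat-VI was at 37.1/29.1 in brain, 1.16/1.22 in IFM and 1.42/1.46 in leg, and its partner side-II at 21.7/15.3, 1.15/0.75 and 1.78/1.42.

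Of 38 other recognition and guidance genes, chosen for their known function, 34 had exon counts. Against IFM, 28 were higher in brain and 1 lower, with a median log2 fold change of 1.90. Against leg, 16 were higher in brain and 10 lower, with a median of 0.44. In leg against IFM, 24 were higher and 3 lower. Of the members none was called lower in brain than in leg.

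Exon use was compared as the log2 fold change of an exon bin minus that of its gene (edgeR, diffSpliceDGE). Of 558 member bins tested, 19 (3.41%) differed between brain and IFM, 12 (2.15%) between brain and leg and 12 (2.15%) between leg and IFM. Among all 60324 bins the shares were 7.01%, 4.16% and 3.86%, and whether the members' shares differ from these was not tested. In all, 29 bins of 14 members were called in at least 1 comparison. Of these, 16 lie in a first or last exon of an annotated transcript, against 176 of all 559 member bins. Of the 29, 2 overlap exons of another gene. With any 1 library left out, 5 of 19, 1 of 12 and 1 of 12 calls were kept in every case, and limma made 18, 10 and 5 of these calls. With 1 brain library, 7 or 8 member bins were called between brain and IFM. Whether reads were counted by strand was not given in the sources used here, so reads of antisense or nested genes that share a bin could not be told apart from those of the member.

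The first exons of dpr17 differed most. Its exon bin E004 (chromosome 3R, 12098086 to 12098656, BDGP6) is a non-coding first exon of 3 of 5 annotated transcripts. It held 521/200 counts in IFM, 13/4 in brain, 16/2 in leg, or 16.2% and 10.8%, 0.173% and 0.0538%, and 7.37/1.34% of the gene's counts. Its share was high in both IFM libraries, lower in leg with a wide spread, and near 0 in brain. Its log2 difference in use was -7.00 for brain against IFM (edgeR adjusted p = 2.83e-08), kept whichever library was left out. For brain against leg it was -5.43 (adjusted p = 0.000304), a call lost without the first leg library (-3.61, adjusted p = 1), the one with 16 counts, and with limma (adjusted p = 0.247). The sperm and testis markers named above were also highest in IFM, and their part in the use of E004 was not tested.

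The bins before it showed the reverse. E001 (12094876 to 12095300), the first exon of 1 transcript, held 11/12 counts in IFM, 786/724 in brain, 20/16 in leg, or 0.343% and 0.649%, 10.5% and 9.74%, and 9.22% and 10.7%. Its log2 difference was 4.604 for brain against IFM (edgeR adjusted p = 1.69e-05) and 4.57 for leg against IFM (adjusted p = 0.00031), both kept in all 6 leave-one-out fits. With limma, the call for leg against IFM was lost (adjusted p = 0.145). E003 (12096049 to 12097016), in which 340 bases are coding, held a mean of 1.86% ± 0.427 (SD, n = 2) in IFM, 21.3% ± 1.16 in brain and 16.7% ± 10.6 in leg. Brain and leg thus shared a high use of these upstream bins, and both IFM libraries were low in them. For leg against IFM, E003 was lost without the second leg library (edgeR adjusted p = 0.228) and with limma (adjusted p = 0.135). Bins E005 to E008, shared by all 5 transcripts, were not called in any comparison.

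DIP-epsilon, on the minus strand of chromosome 2L, has 1 annotated transcript, and its first exon took a smaller share of counts in brain. The non-coding first exon, E010 (6410827 to 6411326), took 27.6/27.9% of the gene's counts in IFM, 30.5/32.1% in leg and 9.75/9.54% in brain. The replicates agree closely, and the brain share lies far below both others. Its log2 difference was -1.53 against IFM (edgeR adjusted p = 0.000271) and -1.70 against leg (adjusted p = 6.26e-05), and both calls were kept in all 6 leave-one-out fits. The next exon, E009, went the same way against leg (-1.16, adjusted p = 0.0382), a call kept in 2 of 6 leave-one-out fits. The coding exons E007 and E008 took 2.74/4.58% and 2.01/2.42% in IFM, against 10.4/10.02% and 7.297/5.75% in brain, with log2 differences of 1.40 and 1.51 (adjusted p = 0.0213 and 0.0453). These last calls were each lost in at least 3 of 6 leave-one-out fits.

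**Figure D4:**
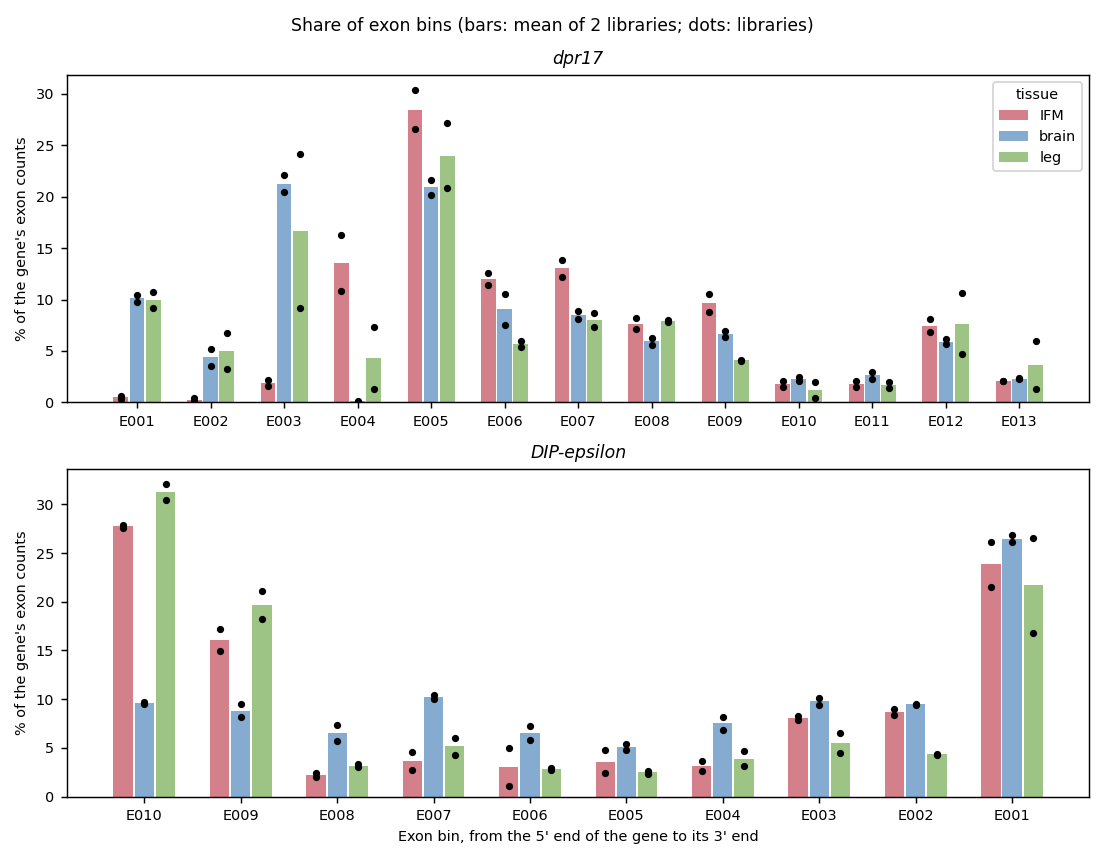
Share of each exon bin in the exon counts of dpr17 (top) and DIP-epsilon (bottom), ordered from the 5′ end, with bars for the mean of 2 libraries and dots for each library. In dpr17, E004 is tallest in IFM (16.2% and 10.8%) and E001 to E003 are tall in brain and leg, while in DIP-epsilon E010 stands near 30% in IFM and leg and below 10% in brain.

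In side, the firmest calls lay towards the 3′ end. E002 (27375499 to 27376646), part of the last exon of all 4 annotated transcripts, with 62 coding bases of 1148, took 6.50/5.69% of the counts in IFM, 15.02/15.5% in brain, 9.35/9.33% in leg. Its log2 difference was 1.33 for brain against IFM (edgeR adjusted p = 6.27e-05), kept in all 6 leave-one-out fits. E006 (27381106 to 27382307), which lies in a long last exon of 1 transcript and in an intron of the others, went the other way, with 5.38/5.54% in IFM, 2.58/1.94% in brain, 6.71/5.14% in leg. Its differences of -1.24 against IFM (adjusted p = 0.000508) and -1.36 against leg (adjusted p = 0.000157) were lost only without the second brain library (adjusted p = 0.0976 and 0.072). In brain, E002 thus had its largest share and E006 its smallest. At the 5′ end, E022, a non-coding first exon of 2 of 4 transcripts, took 1.9/1.5% in IFM and 3.3/3.4% in brain. Its log2 difference was 0.98 (edgeR adjusted p = 0.0329), a call not kept when any IFM or brain library was left out (0.83 to 1.12).

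dpr10 differed in a coding cassette. E004 (chromosome 3L, 10153613 to 10153750) is an internal exon of 138 coding bases in 3 of 4 annotated transcripts. It held 9/25 counts in IFM, 54/127 in brain, 100/96 in leg, or 3.57% and 4.94%, 0.507% and 1.37%, and 6.63/5.32% of the gene's counts. Every leg and IFM share lay above both brain shares. The log2 difference was -2.69 for brain against leg (edgeR adjusted p = 0.000159) and -2.27 for brain against IFM (adjusted p = 0.00469). Both calls were lost without the first brain library (adjusted p = 0.144 and 0.334), and the second also without the second IFM library (adjusted p = 0.158).

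Further called bins were less firm. In beat-VII, which has 1 annotated transcript, the first exon E009 took 11.98/6.72% in IFM, 9.13/8.88% in brain, 2.27/2.33% in leg (brain against leg 1.97, edgeR adjusted p = 0.00152). In dpr15, the first exon E008 held 0 counts in both IFM libraries, which allows up to 3 counts in each, 237/191 in brain and 1/5 in leg. dpr15 itself had low levels of 0.85/0.56 in IFM. In side-VIII, 7 bins were called. Its first exon E001 took 3.31% ± 0.318 in IFM and 7.08% ± 0.320 in brain (SD, n = 2), and the coding exon E021 took 5.49% ± 0.0722, against 1.97% ± 0.129 there and 2.19% ± 0.0373 in leg. The share of E021 in IFM thus exceeded the others by more than the replicate spread. In dpr21, the coding exon E002 took 13.0% ± 3.13 in IFM, 17.6% ± 0.615 in brain and 5.28% ± 1.70 in leg (brain against leg 1.76, edgeR adjusted p = 0.00661, limma adjusted p = 0.0786). In beat-Vc, the last exon E001 held 32/34 counts in IFM, 938/954 in brain, 6/2 in leg (leg against IFM -1.88, edgeR adjusted p = 0.0396, limma adjusted p = 0.0546). In dpr4, E002 and E003 took 26.4/19.9% and 28.6/16.95% in IFM against 7.92/7.41% and 6.91/7.71% in brain. These are the bins that overlap another gene, the antisense asRNA:CR45056, whose own level was 3.60/1.85 in IFM, 25.3/21.96 in brain, 1.498/1.33 in leg.

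Splice junctions and other patterns outside the annotation, such as retained introns, were counted by the authors with fortuna. Each is an unannotated event. The 53 members held 1321 of 122483 such events. Of them, 86.4% were exon skips, against 78.3% of all events, and 1129 of 1141 exon skips joined an annotated exon end to an annotated exon start. Member genes are long, with medians of 22.3 kb (dpr), 33.6 kb (DIP), 36.7 kb (beat) and 58.5 kb (side), and 28.7% of their exon skips spanned over 20 kb, against 12.2% of all. Reads over member events came to 1405/2121 in IFM, 10140/7724 in brain, 800/666 in leg, or 0.0781% and 0.0605%, 1.28% and 1.27%, and 0.141% and 0.120% of each library's event reads. Each brain share thus lay above every other, as with the levels.

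Of the 100 member events with at least 50 reads, 79 were higher and 14 lower in brain than in IFM (edgeR adjusted p under 0.05), where 30.2% of all 16595 events were higher and 33.3% lower. Against leg, 65 were higher and 2 lower, with 18.4% and 16.4% of all events. In leg against IFM, 18 were higher and 14 lower, with 18.0% and 24.7% of all events, and 42.7% called in all. A pair of edges listed under several event types was counted once for each, and the 100 events have 97 distinct pairs of edges. Of the 100, 1 is a retained intron and not a junction. The minimum is a sum over all 6 libraries, so an event can reach it through the tissue where its gene is high. Of the 100, 16 had no IFM read, 28 no leg read and 6 no brain read. The counts called higher in brain thus partly follow from this filter. Relative to the expression of their gene, with the exon counts as an offset, 18 of 99 events differed between brain and IFM, 3 between brain and leg and 13 between leg and IFM, and over all events 24.4%, 2.37% and 23.3% did. The 18 comprise 7 of side and 3 of DIP-epsilon, and the 3 against leg include 2 of DIP-epsilon.

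The most read event was an alternative acceptor of beat-VI (chromosome 3R, 28442815 to 28462004), with 324/226 reads in the brain libraries, 1/5 in IFM and 14/9 in leg. It was higher in brain than in IFM by a log2 fold change of 7.48 (edgeR adjusted p = 2.81e-05). In the fit relative to gene expression, which also scales to event reads, it was higher by 2.78 (adjusted p = 0.0121). In that fit it was also higher in leg than in IFM (3.19, edgeR adjusted p = 0.00996). Its reads per 1000 exon counts were 30.6 in leg, 20.7 in brain and 8.19 in IFM. A skip in beat-VI (28418867 to 28462007), which joins exon bins E001 and E003, had 247/139 reads in brain, 3/2 in IFM and 0/9 in leg. These junctions run over 19.2 and 43.1 kb. The acceptor of the first, at 28462004, lies beside the annotated start of E003 at 28462007, where the second ends.

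In dpr12, an alternative donor-acceptor pair of 0.644 kb (chromosome 2R, 5853069 to 5853714) had 202/173 reads in brain, 0/4 in IFM and 8/1 in leg. Neither edge is annotated, and they lie beside the annotated end of E004 at 5853070 and start of E005 at 5853712. How reads were placed between edges this close was not tested. A skip of 21.3 kb from E002 to E005 of dpr12 had 127/116 reads in brain, 0/2 in IFM and 2/3 in leg. The longest of the 8 most read events was a skip in DIP-lambda over 146.6 kb (chromosome 2R, 348500 to 495144), with 192/155 reads in brain, 7/8 in IFM and 3/7 in leg. It amounted to 32.2 reads per 1000 exon counts of DIP-lambda in brain, 34.4 in IFM and 31.0 in leg, rates that differ little. The fit relative to gene expression, which also scales to event reads, gave 1.35 for brain against IFM (edgeR adjusted p = 0.0955). It gave 0.23 for brain against leg (adjusted p = 0.908) and 1.12 for leg against IFM (adjusted p = 0.24). In dpr21, a skip over 111.6 kb (chromosome 2R, 3079082 to 3190636) had 166/109 reads in brain, 6/10 in IFM and 2/2 in leg. These are 8.28, 25.8 and 4.79 reads per 1000 exon counts. In the fit relative to gene expression, which also scales to event reads, the dpr21 skip was called in no comparison. Its value there was -0.20 for brain against IFM (edgeR adjusted p = 0.791), although its rate per 1000 exon counts was lower in brain. Both of the most read side-VIII skips left from E006: that to E009 had 83/191 reads in brain, 20/31 in IFM and 31/30 in leg, and that to E016 had 159/156, 7/4 and 17/16.

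The events of DIP-epsilon and side described next were chosen after their values were seen. In DIP-epsilon, a skip from E010 to E007 (6391344 to 6410827) that leaves out E009 and E008 had 36/63 reads in IFM, 70/38 in leg and 7/16 in brain. Relative to gene expression it was lower in brain than in IFM by a log2 value of -3.43 (SE 0.63, edgeR adjusted p = 0.00548) and than in leg by -4.56 (SE 0.65, adjusted p = 0.0115). It amounted to 59.6 and 55.7 reads per 1000 exon counts in IFM and leg and to 2.05 in brain. A skip from E009 to E005 had 81/50 reads in leg, 15/5 in brain and 0/0 in IFM. A skip from E009 to E003 had 17/47 reads in IFM and none in the 4 other libraries, where a count of 0 allows up to 3 reads in each. Each of the 3 skips thus had its most reads outside brain.

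In side, 14 events had at least 50 reads, and in 12 of them more than 80% of the reads came from IFM. The minimum of 50 reads could be reached through IFM reads alone. Of the 14, 8 joined E003, in the last exon, and 5 joined E015 to exons further upstream. IFM libraries held between 17 and 68 reads over each, and no brain library held more than 19 and no leg library more than 12. The skip from E015 to E021 (27396579 to 27418243) had 45/54 reads in IFM, 1/0 in brain, 0/0 in leg. The skip from E003 to E020 (27376658 to 27400296) had 24/68 reads in IFM and none in brain or leg. Relative to gene expression, 7 side events were lower in brain and 7 lower in leg than in IFM (edgeR adjusted p under 0.05). Each was rare, with 2.03 and 1.89 reads per 1000 exon counts in IFM for the 2 skips above. The IFM libraries also had the most event reads in all, 1798695 and 3507067 against at most 794567 elsewhere, and counts of 0 in the shallower libraries allow up to 3 reads.

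**Figure D5:**
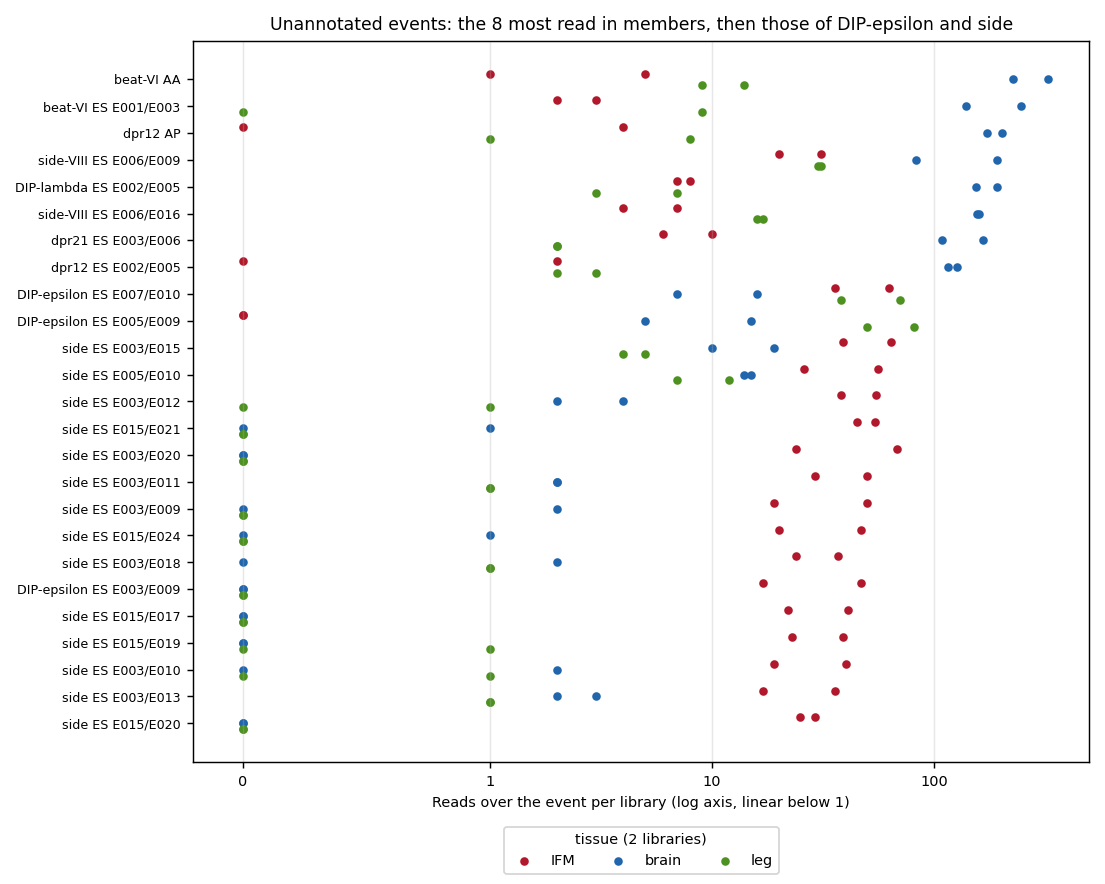
Reads per library over the 8 most read unannotated events of member genes and over the events of DIP-epsilon and side with at least 50 reads (log axis, linear below 1), labelled by event type (ES exon skip, AA alternative acceptor, AP alternative donor-acceptor pair) and by the exon bins joined where both are annotated. Brain libraries lead in the upper 8 lines, while in the side lines the IFM libraries hold 17 to 68 reads and most brain and leg libraries are at 0 to 2.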

How the data were processed

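By the submitters' processing notes, the authors used STAR 2.7.3a on BDGP6, SAMtools 1.1, featureCounts (Subread 2.0.0) and DESeq2 1.32.0. From their deposited gene tables only the mean normalized signal over 4 libraries was used, since fold changes and p-values there are the authors' own comparisons. Raw counts of each library over exon bins stand in their deposited DEXSeq tables, whose version and read counter are not given in the sources used here. Their fortuna tables give raw read counts per event, library and read end.

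Bins with counts in all 6 libraries and of 1 gene (63240 of 64266) were summed per gene; 78 lines per table without a bin name were left out. The count columns name a tissue but no replicate number, so libraries are given in column order. Both read ends of an event were added. Genes, bins and events with at least 50 counts entered edgeR 4.0.16 (R 4.3.3; TMM, quasi-likelihood F test, all 6 libraries, tissue as the only factor, Benjamini-Hochberg adjustment over all features, threshold 0.05), and diffSpliceDGE for exon use. A fold change's standard error is its size divided by the square root of F. Annotation came from Ensembl BDGP6.54, in which 99.3% of 559 member bins had both edges. Tests were checked on simulated data with changes planted between brain and IFM. Of 50 changes of 2-fold, the gene test recovered 6, the exon use test 3 and the event test 0. Of 50 changes of 16-fold, they recovered 47, 47 and 50. In the simulated data, changes near 2-fold were thus mostly missed. Few changes were planted there, while 8192 of 12343 genes were called between brain and IFM in the real data. The adjustment is stricter when fewer features change, so these recoveries do not give the sensitivity of the tests reported here. Alternatives were DESeq2 1.42.0, limma 3.58.1, total counts, other minima and other sets of libraries. For events, the log of a gene's mean CPM in a tissue plus 0.1 also served as an offset. It was added to the log of each library's scaled total of event reads. Both libraries of a tissue had the same gene offset.

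Members and lists were chosen with earlier results of these data known. Values per library are given for members among the 6 highest per tissue, the 5 largest changes per direction and comparison, those with a known binding partner, the 6 with the smallest exon bin p per comparison and the hosts of the 8 most read events. Sequences were not analysed here.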

Additional observations from a re-analysis of the deposited data

How the results depend on the processing

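Higher levels in brain held for 48 members against IFM and 49 against leg in every setting. Of the leg and IFM calls, 29 in all, 18 held with the 4 libraries of the pair alone and 29 to 36 were made under the other settings with all libraries. With total counts only, 33 were higher in leg and 3 lower, and with the 4 libraries 2 were lower. Leaving out 1 library gave 48 to 50 members called for brain against IFM, 49 for brain against leg, and 22 to 27 for leg against IFM, of which 14 to 19 were higher and 7 to 9 lower. The order of brain and IFM for side turned with total counts only (0.71). With total counts only, the median member level was 0.61 in IFM and 37.5 in brain.

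Calls of exon bins rest on all libraries: leaving out 1 gave 7 to 20 member bins for brain against IFM, 3 to 13 for brain against leg and 7 to 14 for leg against IFM. With the 4 libraries of the pair, leg against IFM gave 2. limma gave 26, 14 and 8 member bins, and 6535, 3205 and 3517 bins in all against 4226, 2507 and 2326.

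For events, a minimum of 10 reads gave 311 and 137 of 468 member events for brain against IFM and against leg, a smaller share than 93 and 67 of 100, and 17291 and 7344 of all 46884 events. Relative to locus expression, 18, 3 and 13 were called, of which 17, 2 and 13 had been called before in the same direction. The direction turned for 14 called events of brain against IFM, 12 of brain against leg and 0 of leg against IFM, none of them past the threshold afterwards. Among the 8 most read, these were a dpr21 skip against IFM (-0.20) and, against leg, a side-VIII skip (-0.96) and the beat-VI acceptor (-0.42). DESeq2 called 20 for leg against IFM. Leaving out 1 library gave 46 to 96, 29 to 66 and 9 to 28. A replicate block gave 93, 68 and 26 member events. The numbers pair nothing, since replicate differences correlated at 0.0115 to 0.0236 between tissues. No paired analysis was possible because of missing replicate numbers for genes and exon bins. The cause of each change was not tested. Members below a level of about 1 in IFM and leg, and bins with under 20 counts, are limited by depth.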
